A study of Homo sapiens with 6 samples.

Results

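The 49 genes described here are factors of the NF-kB pathway, the cytokines and chemokine ligands that it controls or that feed it, and a few of their receptors. They were taken by gene symbol from the deposited expression table, which lists 24294 loci, and all 49 were found in it. For TNF, which has 8 rows, the row with the highest mean was used. NFKBIZ lies in a merged locus whose value it shares with FAM55C. Of the 49 genes, 35 had a mean of at least 1 FPKM (fragments assigned to a transcript, scaled to its length and to the size of the library) over the 6 libraries and were tested, and 14 lay under that minimum.

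Messenger RNA was sequenced from MCF12A, a line of immortalized breast epithelium that is not tumorigenic, although the labels call it a breast cancer line. The 3 miR-424 samples came from cells stably over-expressing miR-424, a microRNA, and the 3 EV samples came from cells that carried the empty vector. All were harvested after 48 hours of growth. Nothing in the labels says that the 3 samples of a group came from separately derived lines, so the p-values reflect no more than the scatter among these libraries, part or all of which could be technical. The vector and its promoter are not described in the labels.

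NF-kB is a family of dimeric transcription factors built from the subunits RELA, RELB, REL, NFKB1 and NFKB2. In resting cells the dimers are held in the cytoplasm by IkB proteins such as NFKBIA. Receptors for TNF and IL-1 activate a kinase complex that marks IkB for ubiquitination and destruction, the dimers enter the nucleus, and they switch on cytokines, chemokines and their own inhibitors. In epithelial cells the IL-6 family cytokines, which include IL6, LIF and IL11, act through receptors that share IL6ST (gp130) and pass the signal to STAT3.

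MicroRNAs bind matching stretches of messenger RNA through their seed, bases 2 to 8, and lower the level or the translation of those messages. The mature 5p strand of miR-424 is shown because the labels describe over-expression of this microRNA. Its seed is in capitals (RefSeq, GRCh38.p14, chromosome X, minus strand).
hsa-miR-424-5p: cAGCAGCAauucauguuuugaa

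The locus listed as MGC16121/MIR424, which contains the microRNA, read 107, 106 and 224 FPKM in miR-424 replicates 1, 2 and 3 and 0.989, 1.27 and 1.23 FPKM in EV replicates 1, 2 and 3. This value comes from an mRNA library and does not measure the mature strand. FPKM values summed to between 409776 and 416076 in the miR-424 libraries and to between 419938 and 424564 in the EV libraries, and the read numbers behind them are unknown. Of 10 mammary epithelial markers 7 had a mean of at least 1 FPKM, among them KRT5, KRT8 and KRT18. E-cadherin (CDH1) lay under 0.1 FPKM in every library, and KRT19 and TP63 averaged 0.0935 and 0.153 FPKM over the 6 libraries. Summed over the list, these markers reached 328 to 351 FPKM in miR-424 and 354 to 369 FPKM in EV libraries, and 1 of the 7 tested rose and 1 fell. KRT14 averaged 4.36 ± 0.80 FPKM in miR-424 and 2.25 ± 0.24 FPKM in EV cells (SD, n = 3 each; limma, adjusted p = 0.0165), and KRT5 averaged 40.7 ± 3.22 and 63.7 ± 2.27 FPKM (adjusted p = 0.00415, limma). Their part in the results below was not tested. Of 8 leukocyte markers, PTPRC, ITGAM and CD3E lay under 0.1 FPKM in every library, while LYZ, CSF1R and CD14 averaged 1.2, 0.595 and 0.349 FPKM. The summed level, carried by CD68, was 54.7 to 60.8 FPKM in miR-424 and 56.6 to 59.5 FPKM in EV libraries. Of 8 fibroblast markers, COL1A2, PDGFRA and THY1 lay under 0.1 FPKM and the sum, carried by DCN and COL1A1, was 164 to 186 FPKM in miR-424 and 156 to 166 FPKM in EV libraries, with COL1A1 higher in miR-424 cells (limma, adjusted p = 0.0456) and DCN not past the threshold. The 5 endothelial markers summed to under 1 FPKM in every library. Library miR-424 replicate 3 stood apart: typical loci (median, absolute log2 scale) differed by 0.142 between it and replicate 1 and by 0.152 between it and replicate 2, against 0.0408 for the other pair and 0.0357 to 0.0417 among EV libraries. Its median over tested loci lay 0.113 (log2) under the EV mean, and results are therefore given with and without it.

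Among the tested members, the cytokine genes LIF and IL6 and the receptor gene OSMR were higher in miR-424 cells, and BIRC3, TNIP1, SOD2 and TNFAIP2 were lower. By the ratio of mean FPKM, LIF was 1.41 times, IL6 1.24 times and OSMR 1.22 times as high in miR-424 as in EV cells, and BIRC3 was at 0.687, TNFAIP2 at 0.794, SOD2 at 0.815 and TNIP1 at 0.872 of the EV level. The subunits of NF-kB themselves did not pass the test with all libraries. Thus 3 of 35 members rose (8.57%) and 4 fell (11.4%), by limma on log2(FPKM + 1) at a Benjamini-Hochberg adjusted p under 0.05, where 1.24% of 11574 tested loci rose, 6.32% fell and 7.56% passed in either direction. The median log2 change was -0.06 over the tested members and -0.05 over all tested loci.

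These calls rest on all 3 EV libraries. Leaving out EV replicate 1 or 3 left 0 members past the threshold, and leaving out EV replicate 2 left only LIF. Without EV replicate 1 or 3, 16 and 15 of the 35 members had an unadjusted p under 0.05 (limma). Of the 11574 tested loci, 1825 and 1865 did so. The loci called over the whole table fell to 34 higher and 77 lower, 31 and 79, and 35 and 84 without EV replicate 1, 2 and 3. Leaving out miR-424 replicate 3 raised the members called to 8 higher and 10 lower, where 37.2% of all loci passed, 14.9% higher and 22.2% lower. The groups did not overlap in 8 members that were higher and 13 that were lower, against 6.59% and 26.9% of all tested loci. Median-of-ratios scaling between libraries moved the rises among all called loci to 38.4% from the 16.5% found with the values as deposited. It gave 4 members higher and 3 lower, where 308 of 11574 loci were higher and 495 lower. Quantile normalization, with 41.6% rises, gave 6 and 3 members, where 319 loci were higher and 447 lower.

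**Figure D1:**
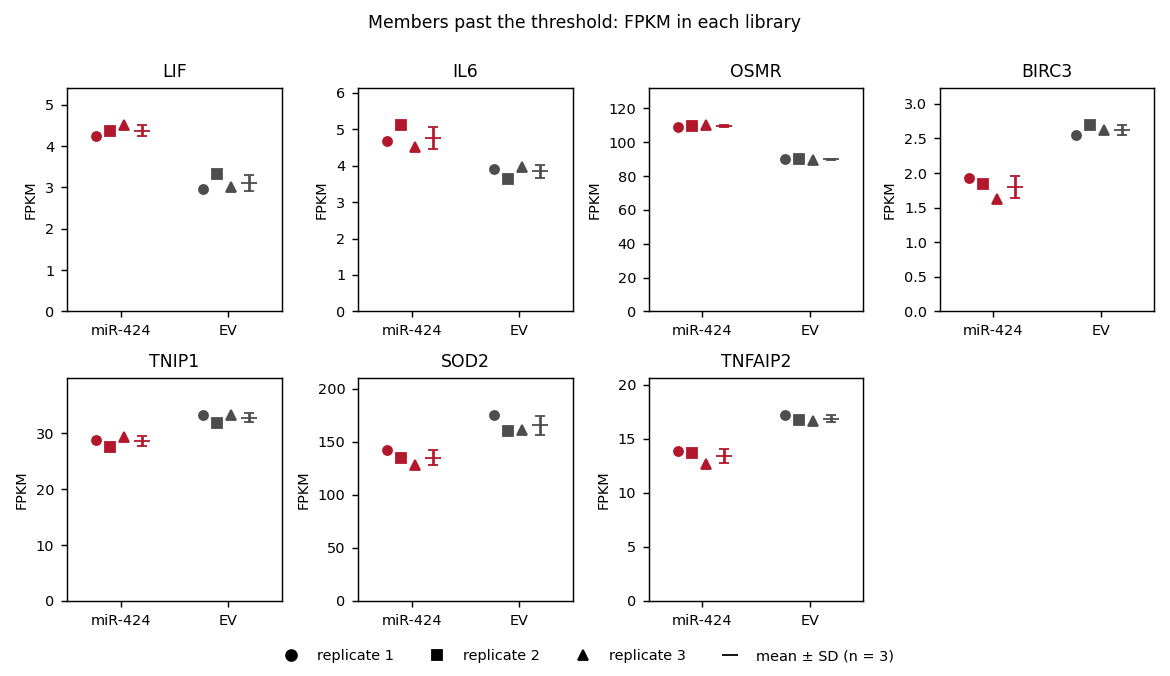
FPKM (y axis, from 0) of the 7 members past the threshold in each library, with miR-424 left of EV; symbols mark replicates 1 to 3 and bars the mean ± SD (n = 3). In all 7 panels the groups do not overlap, with LIF, IL6 and OSMR higher and BIRC3, TNIP1, SOD2 and TNFAIP2 lower in miR-424 cells.

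The IL-6 family held all 3 rises among the members. LIF, a cytokine that signals through LIFR and IL6ST, read 4.25, 4.37 and 4.51 FPKM in miR-424 replicates 1, 2 and 3 and 2.98, 3.33 and 3.02 FPKM in the EV replicates (chromosome 22, 30636435 to 30642840, hg19). Every miR-424 library lay above every EV library, and the means were 4.38 ± 0.13 and 3.11 ± 0.19 FPKM (SD, n = 3 each). On the log2(FPKM + 1) scale LIF rose by 0.39 ± 0.05 (SE; adjusted p = 0.00891, limma). Without EV replicate 1 or 3 the change of LIF was 0.37 with adjusted p = 0.0616 and 0.0646, and over 15 alternatives the adjusted p (limma) ranged from 0.00156 to 0.0646.

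IL6, an inflammatory cytokine that binds IL6R and IL6ST, read 4.68, 5.11 and 4.52 FPKM in miR-424 libraries against 3.91, 3.65 and 3.97 FPKM in EV libraries. The groups did not overlap, and the log2 change was 0.25 ± 0.06 (SE; limma, adjusted p = 0.0436). Of 15 alternatives, 8 kept the call of IL6, against 13 of 15 for LIF, and the adjusted p reached 0.19 without EV replicate 2. IL11, the third cytokine of this family, read 4.85, 4.82 and 4.56 FPKM in miR-424 and 4.48, 5.00 and 4.52 FPKM in EV libraries, with overlapping groups and a log2 change of 0.02 (95% interval -0.11 to 0.15; adjusted p = 0.881, limma).

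Among the receptors of the family, 1 of 4 rose. OSMR, the oncostatin M receptor subunit that pairs with IL6ST, read 109.2, 109.5 and 110.05 FPKM in miR-424 libraries and 90.2, 89.9 and 89.8 FPKM in EV libraries. Its replicates were close, with means of 109.6 ± 0.44 and 89.9 ± 0.21 FPKM (SD, n = 3 each), and the log2 change was 0.28 ± 0.03 (SE; limma, adjusted p = 0.00591). Leaving out any 1 EV library gave OSMR the same change of 0.28 and an adjusted p (limma) of 0.0549 to 0.0578.

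LIFR lies next to OSMR on chromosome 5 (38475064 to 38595507, with OSMR at 38845959 to 38935743) and encodes the LIF receptor subunit. It read 17.7, 17.8 and 12.9 FPKM in miR-424 libraries and 19.2, 18.9 and 18.3 FPKM in EV libraries. All 3 miR-424 values of LIFR were lower than the EV values, but replicate 3 lay far under the other pair, and the gene did not pass (log2 change -0.22, 95% interval -0.50 to 0.05; limma, adjusted p = 0.305). Without miR-424 replicate 3 the change of LIFR was -0.08 (limma, adjusted p = 0.0555). The shared subunit IL6ST read 15.7, 15.7 and 13.1 FPKM in miR-424 and 15.4, 15.1 and 15.1 FPKM in EV libraries, with overlapping groups and a change of -0.03 (95% interval -0.20 to 0.14). IL6R, the binding subunit for IL6, was low, at 2.14 to 2.43 FPKM in miR-424 and 2.22 to 2.48 FPKM in EV libraries.

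**Figure D2:**
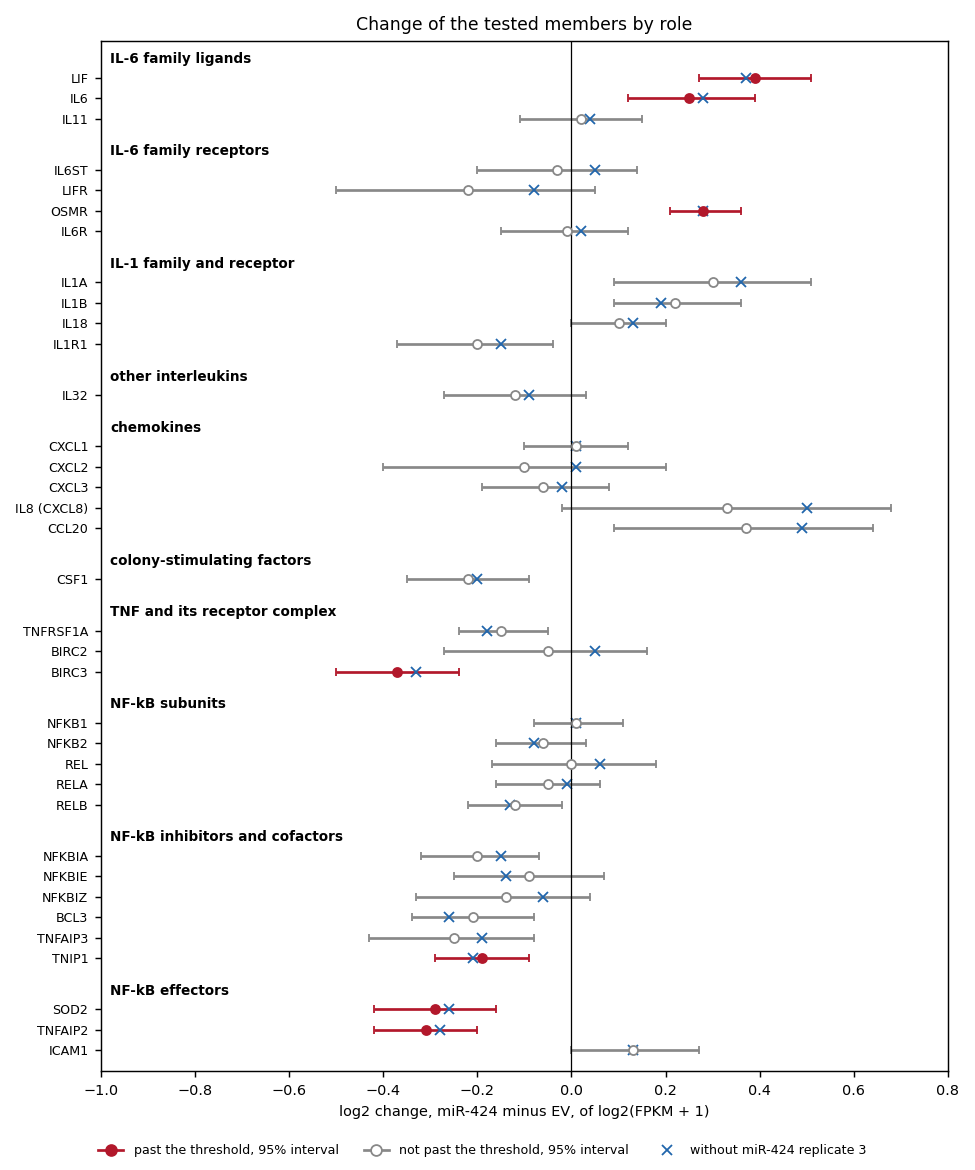
Log2 change (x axis, miR-424 minus EV, of log2(FPKM + 1)) of the 35 tested members, grouped by role from top to bottom; circles with bars are the change and its 95% interval (limma, n = 3 each), filled where the adjusted p is under 0.05, and crosses are the change without miR-424 replicate 3. Filled circles lie right of 0 for LIF, IL6 and OSMR and left of 0 for BIRC3, TNIP1, SOD2 and TNFAIP2; the 6 inhibitors and cofactors of NF-kB lie left of 0, as do 68.3% of all tested loci.

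In the IL-1 family 0 of 4 tested members passed, and the changes of the 3 cytokines were positive. IL1A, an alarmin stored in epithelial cells, read 1.62, 1.90 and 1.41 FPKM in miR-424 libraries and 1.32, 0.983 and 1.14 FPKM in EV libraries. Its groups did not overlap, and its log2 change was 0.30 (95% interval 0.09 to 0.51; limma, adjusted p = 0.0959). IL1B, whose precursor is cleaved by caspase-1, read 1.15, 1.3 and 1.38 FPKM in miR-424 and 0.885, 1.03 and 0.939 FPKM in EV libraries, again without overlap (log2 change 0.22, adjusted p = 0.0661, limma).

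IL18, a further caspase-1 substrate and the most abundant cytokine of this family here, read 23.6, 24.4 and 22.7 FPKM in miR-424 and 22.0, 21.6 and 22.0 FPKM in EV libraries (log2 change 0.10, limma adjusted p = 0.201). The receptor gene IL1R1 had a negative change, with 7.44, 6.74 and 6.24 FPKM in miR-424 and 8.49, 7.62 and 7.85 FPKM in EV libraries. Its groups did not overlap either, and the change of -0.20 did not pass (adjusted p = 0.136, limma). Without miR-424 replicate 3, IL1A, IL1B and IL18 passed (limma adjusted p = 0.0126, 0.0428 and 0.00842) and IL1R1 did not (0.0664). In that fit 14.9% of all loci were called higher. With the GC trend given below also removed, IL1B lost the call and IL1R1 gained it (limma, adjusted p = 0.0726 and 0.0426). IL1RN, the receptor antagonist in the same cluster of chromosome 2 as IL1A and IL1B, was listed at 0 in 4 libraries and at most at 0.0148 FPKM.

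Chemokine genes lay in a cluster on chromosome 4, where IL8 (CXCL8), CXCL6, CXCL1, CXCL5, CXCL3 and CXCL2 span 74606222 to 74964997. They encode ligands that attract neutrophils through CXCR1 and CXCR2. Within the cluster the levels ranged widely: CXCL1 averaged 31.9 ± 0.29 FPKM in miR-424 and 31.7 ± 1.73 FPKM in EV cells (SD, n = 3 each), whereas CXCL5 was at 0.139 to 0.163 FPKM in miR-424 and 0.161 to 0.203 FPKM in EV libraries, and CXCL6 was listed at 0 in 4 libraries. CXCL1, CXCL2 and CXCL3 are close relatives, with 68.3% to 81.1% identity between their transcripts aligned end to end. How reads were split between them was not examined.

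CXCL1 did not differ beyond the spread, with 31.6, 31.9 and 32.2 FPKM in miR-424 and 33.6, 30.2 and 31.2 FPKM in EV libraries (log2 change 0.01, 95% interval -0.10 to 0.12). Changes of CXCL2 and CXCL3 were -0.10 (95% interval -0.40 to 0.20) and -0.06 (95% interval -0.19 to 0.08). IL8 read 22.6, 24.2 and 15.9 FPKM in miR-424 libraries and 16.9, 16.7 and 15.1 FPKM in EV libraries. Here miR-424 replicates 1 and 2 lay above all EV libraries and replicate 3 lay among them, so that the change of 0.33 had a 95% interval of -0.02 to 0.68 (limma, adjusted p = 0.236).

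CCL20, the ligand of CCR6 on chromosome 2, had the same shape, with 5.04, 5.13 and 3.68 FPKM in miR-424 and 3.65, 2.97 and 3.37 FPKM in EV libraries. Replicate 3 exceeded the highest EV library by little, and the change of 0.37 did not pass (95% interval 0.09 to 0.64; limma, adjusted p = 0.114). Without miR-424 replicate 3 the changes of IL8 and CCL20 were 0.50 and 0.49 (limma, adjusted p = 0.000773 and 0.00188). Both had transcripts of low GC content (33.4% and 35.5%), and the libraries differed by GC, as given below.

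**Figure D3:**
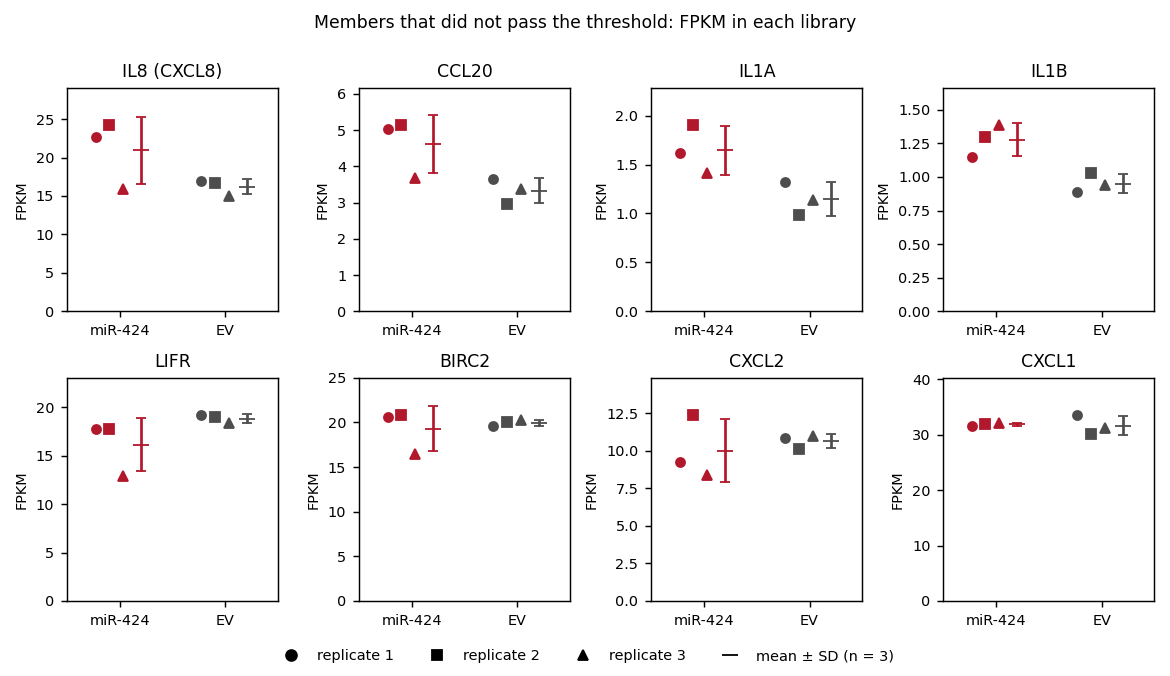
FPKM (y axis, from 0) in each library of 8 members that did not pass the threshold, chosen for display after their values were seen, with miR-424 left of EV; symbols mark replicates 1 to 3 and bars the mean ± SD (n = 3). In IL8, CCL20, LIFR and BIRC2, miR-424 replicate 3 lies under replicates 1 and 2, whereas the 3 miR-424 values of CXCL1 lie within the range of the EV values.

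Other secreted factors gave no call with all libraries. CSF1, the growth factor of macrophages, read 17.5, 15.7 and 16.0 FPKM in miR-424 and 20.1, 18.6 and 18.9 FPKM in EV libraries. The groups did not overlap, and the log2 change of -0.22 missed the threshold (95% interval -0.35 to -0.09; limma, adjusted p = 0.0614), but passed without miR-424 replicate 3 (change -0.20, adjusted p = 0.0184). CSF2 and CSF3, which drive granulocyte and macrophage growth, lay between 0.108 and 0.266 FPKM in miR-424 and between 0.152 and 0.224 FPKM in EV libraries. IL32, a cytokine of epithelial and immune cells, read 7.24, 6.76 and 6.53 FPKM in miR-424 and 8.16, 7.26 and 7.16 FPKM in EV libraries (change -0.12, 95% interval -0.27 to 0.03). IL15, a growth factor of NK cells, was at 0.802 to 0.889 FPKM in miR-424 and 0.751 to 0.910 FPKM in EV libraries.

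Genes of the TNF receptor complex were expressed, while TNF mRNA was at or near 0. TNF was listed at 0 in 4 libraries and at 0.0128 FPKM in miR-424 replicate 2 and 0.00897 FPKM in EV replicate 2. Its receptor gene TNFRSF1A read 55.9, 54.1 and 58.6 FPKM in miR-424 and 62.4, 62.1 and 62.3 FPKM in EV libraries. All miR-424 values were lower, the change was -0.15 (95% interval -0.24 to -0.05), and the gene did not pass (limma, adjusted p = 0.0812; 0.00133 without miR-424 replicate 3).

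BIRC3 encodes cIAP2, a ubiquitin ligase of the TNF receptor complex and a classical NF-kB target. It read 1.93, 1.85 and 1.63 FPKM in miR-424 libraries and 2.55, 2.69 and 2.62 FPKM in EV libraries, without overlap. The log2 change was -0.37 ± 0.05 (SE; limma, adjusted p = 0.0126), the most negative among tested members, and leaving out any 1 EV library gave an adjusted p for BIRC3 (limma) of 0.0665 to 0.0826. BIRC2, which encodes the related cIAP1 and lies beside BIRC3 on chromosome 11, read 20.6, 20.8 and 16.4 FPKM in miR-424 and 19.6, 20.002 and 20.3 FPKM in EV libraries. Its groups overlapped and its change was -0.05 (95% interval -0.27 to 0.16). TRAF1, an adaptor of the complex and an NF-kB target, lay just under the minimum at a mean of 0.996 FPKM.

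Of the 5 NF-kB subunits, 0 passed the test with all libraries. RELA, the main activating subunit, read 18.2, 18.0 and 16.6 FPKM in miR-424 and 17.9, 18.4 and 18.5 FPKM in EV libraries (change -0.05, 95% interval -0.16 to 0.06). NFKB2, the precursor in the non-canonical arm, read 9.41, 9.22 and 9.70 FPKM in miR-424 and 9.83, 9.92 and 10.003 FPKM in EV libraries (change -0.06, 95% interval -0.16 to 0.03). RELB, the partner of NFKB2, was at 3.82 to 3.99 FPKM in miR-424 and 4.25 to 4.46 FPKM in EV libraries (change -0.12, adjusted p = 0.142, limma). Without miR-424 replicate 3 RELB was called lower (change -0.13, adjusted p = 0.0336, limma). It was not called once the GC trend given below was also removed (change -0.02, adjusted p = 0.745, limma). For NFKB1 and REL the changes were 0.01 (95% interval -0.08 to 0.11) and 0.00 (95% interval -0.17 to 0.18). Thus, with all libraries, changes of RELA, NFKB1 and REL larger than 0.18 in size on the log2(FPKM + 1) scale lay outside their 95% intervals. Without miR-424 replicate 3 the 95% interval of REL was -0.10 to 0.22. This scale understates the change of a gene as low as REL.

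The inhibitors and cofactors had a negative change in all 6 cases, with a median of -0.20, and 1 passed, where 68.3% of all tested loci had a negative change. Under median-of-ratios scaling, where 48.7% of all loci were negative, and under quantile normalization the 6 changes were still negative, NFKBIE being near 0 at -0.05 and -0.01. The 1 that passed was TNIP1, which helps the ubiquitin editor TNFAIP3 to restrain the kinase complex. TNIP1 read 28.8, 27.6 and 29.4 FPKM in miR-424 libraries against 33.3, 31.9 and 33.3 FPKM in EV libraries. The log2 change was -0.19 ± 0.04 (SE; limma, adjusted p = 0.0403), and it was -0.14 after median-of-ratios and -0.15 after quantile scaling, where TNIP1 did not pass (limma, adjusted p = 0.207 and 0.146). Of 16 alternatives, 8 kept this call.

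NFKBIA, the IkB-alpha gene and a rapid NF-kB target, read 20.9, 20.4 and 18.6 FPKM in miR-424 and 23.7, 22.9 and 22.5 FPKM in EV libraries (change -0.20, 95% interval -0.32 to -0.07; limma, adjusted p = 0.0726). TNFAIP3 (A20) read 5.36, 6.02 and 4.87 FPKM in miR-424 and 6.92, 6.69 and 6.33 FPKM in EV libraries (change -0.25, adjusted p = 0.0887, limma). For BCL3, a nuclear IkB protein, the values were 6.31, 6.13 and 6.98 FPKM in miR-424 and 7.48, 7.79 and 7.58 FPKM in EV libraries (change -0.21, adjusted p = 0.0700, limma). The groups of NFKBIA, TNFAIP3 and BCL3 did not overlap, and without miR-424 replicate 3 all 3 passed (limma, adjusted p = 0.00742, 0.0281 and 0.00165). Of all tested loci, 26.9% were lower without overlap, and 22.2% were called lower without miR-424 replicate 3. NFKBIE and NFKBIZ had overlapping groups and changes of -0.09 and -0.14.

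Of the effector genes, SOD2 and TNFAIP2 fell. SOD2, the mitochondrial superoxide dismutase and the most abundant member, read 142, 134 and 128 FPKM in miR-424 libraries and 175, 159.8 and 161 FPKM in EV libraries. The groups did not overlap, and the log2 change was -0.29 ± 0.06 (SE; limma, adjusted p = 0.0279), with 11 of 16 alternatives past the threshold. TNFAIP2, a TNF-induced gene, read 13.8, 13.7 and 12.7 FPKM in miR-424 and 17.2, 16.7 and 16.7 FPKM in EV libraries (change -0.31 ± 0.05, SE; limma, adjusted p = 0.0132). Without any 1 EV library, the adjusted p of TNFAIP2 (limma) was 0.0802 to 0.0863 and that of SOD2 0.1 to 0.121. ICAM1, an adhesion molecule for leukocytes, read 3.43, 3.81 and 3.61 FPKM in miR-424 and 3.43, 3.21 and 3.003 FPKM in EV libraries (change 0.13, adjusted p = 0.219, limma).

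**Figure D4:**
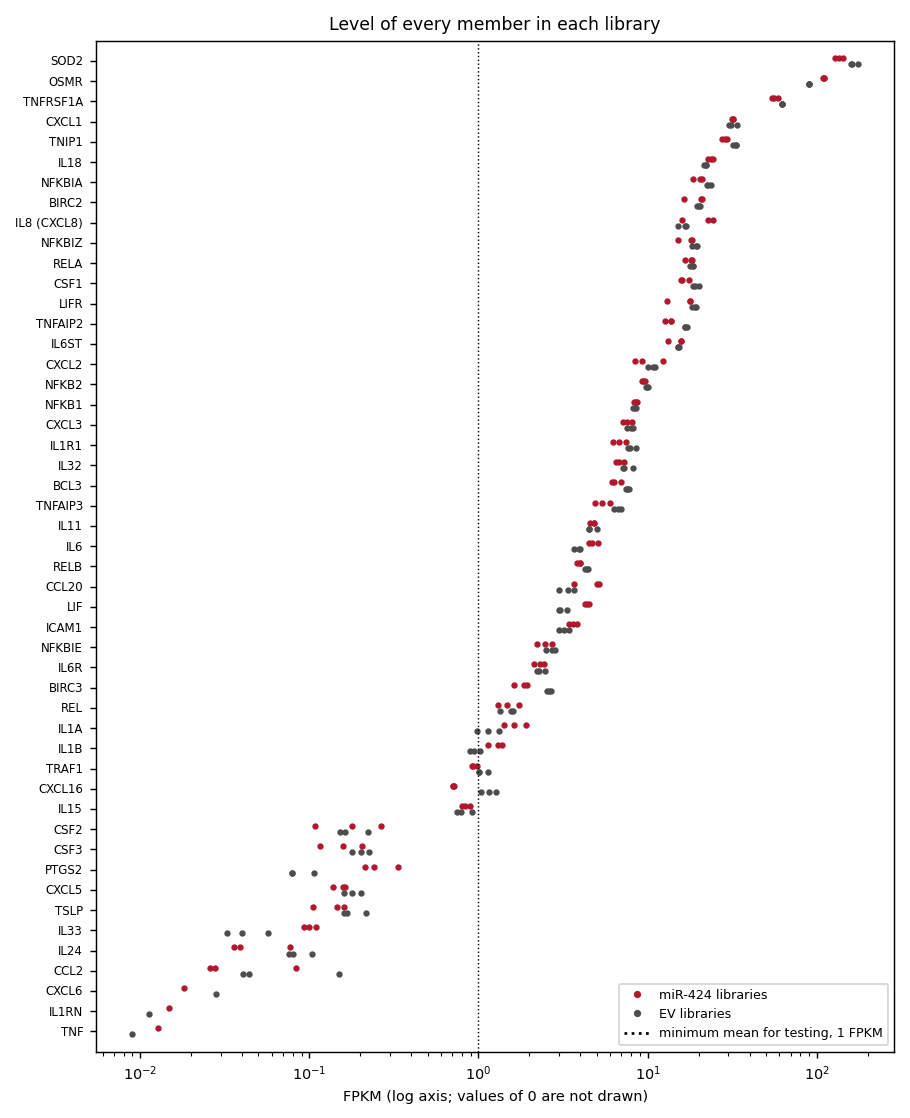
FPKM of all 49 members in each library on a log x axis, ordered by mean from bottom to top; red points are miR-424 and grey points EV libraries, values of 0 are not drawn, and the dotted line marks the minimum mean of 1 FPKM. Members span from 0.00363 FPKM (TNF) to 150 FPKM (SOD2) on average, and 14 have a mean left of the line.

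The 14 members under the minimum had means between 0.00363 FPKM (TNF) and 0.996 FPKM (TRAF1). The nearest tested member was IL1B at 1.11 FPKM. Among them, CXCL16, a membrane-bound chemokine, read 0.710, 0.708 and 0.721 FPKM in miR-424 and 1.26, 1.04 and 1.15 FPKM in EV libraries. PTGS2, the inducible cyclooxygenase, read 0.214, 0.334 and 0.242 FPKM in miR-424 and 0.0788, 0.106 and 0.0789 FPKM in EV libraries. IL33, a nuclear alarmin, read 0.110, 0.1002 and 0.0927 FPKM in miR-424 and 0.0571, 0.0398 and 0.0325 FPKM in EV libraries. In these 3 genes the groups did not overlap, and in a fit without the filter the adjusted p (limma) was 0.0211 for CXCL16, 0.0348 for PTGS2 and 0.0317 for IL33. The groups of TRAF1, lower in miR-424, did not overlap either, but its adjusted p (limma) was 0.331. In that fit 152 of 19342 loci were called higher and 749 lower, and IL6 was not called (limma, adjusted p = 0.0749). TSLP, IL24 and CCL2 lay under 0.22 FPKM in every library, with overlapping groups.

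Deviations of the miR-424 libraries varied with GC content. Over all tested loci with transcripts under 40% GC, the median deviation from the EV mean was 0.068 (log2) in the first miR-424 library, 0.084 in the second and -0.216 in the third, and over 60% GC it was -0.091, -0.12 and -0.05. Its part in the results was not tested beyond the fits that follow. The deviation of miR-424 replicate 3 from the mean of replicates 1 and 2 was most negative for IL8 (-0.527), LIFR (-0.426), CCL20 (-0.378) and BIRC2 (-0.320). After removal of the GC trend in each library, the 7 called members passed again, and IL8, CCL20, LIFR and TNFRSF1A joined them with changes of 0.30, 0.35, -0.25 and -0.12 (limma, adjusted p = 0.0492, 0.0267, 0.0407 and 0.0391), so that 5 members were higher and 6 lower. In that fit 10.5% of all loci passed, 2.4% higher and 8.05% lower. With the trend removed and miR-424 replicate 3 left out, 7 members were higher and 11 lower, and 29.8% of all loci passed, 11.8% higher and 18.0% lower. Against the fit that only left out replicate 3, RELB, IL1B and CSF1 lost the call (limma, adjusted p = 0.745, 0.0726 and 0.0561). LIFR, IL1R1 and NFKBIZ gained it (limma, adjusted p = 0.00269, 0.0426 and 0.031). The GC content used for NFKBIZ came from a transcript of its merged locus that may belong to FAM55C. In bulk RNA, fewer cells that express a gene and less RNA per cell cannot be told apart.

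**Figure D5:**
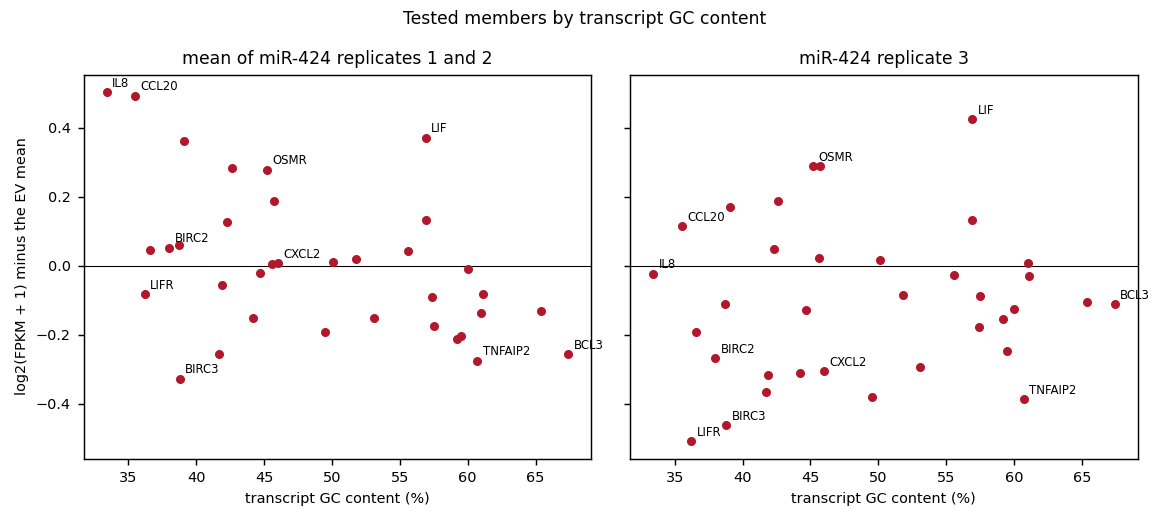
Deviation of log2(FPKM + 1) from the EV mean (y axis) against transcript GC content in percent (x axis) for the 35 tested members, with the mean of miR-424 replicates 1 and 2 in the left panel and miR-424 replicate 3 in the right. IL8 (33.4% GC) and CCL20 (35.5% GC) are high on the left and near or little above 0 on the right, while LIF (56.9% GC) is high in both panels.

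Other genes of the pathway were counted by role. Of 125 such genes 79 were tested, 0 rose and 6 fell (7.59%), with a median log2 change of -0.04. An unadjusted p under 0.05 (limma) was found for 22 of the 79, against 2732 of the 11574 tested loci. The share that fell is near the 6.32% of all tested loci, so the genes below are named as single genes and not as a change of the pathway. Among receptors, 2 of 18 fell: CXCR4, the receptor of CXCL12, at 4.27 ± 0.24 FPKM in miR-424 and 11.2 ± 0.55 FPKM in EV cells (SD, n = 3 each), and IL17RC, a subunit of the IL-17 receptor, at 1.35 ± 0.01 and 2.01 ± 0.11 FPKM. Among adaptors and kinases, 1 of 21 fell, CHUK, which encodes the kinase IKK-alpha and read 11.5, 11.8 and 10.7 FPKM in miR-424 and 13.6, 14.0 and 13.2 FPKM in EV libraries. Its change was -0.24 ± 0.05 (SE; limma, adjusted p = 0.0349). The other subunits of that kinase complex, IKBKB and IKBKG, had changes of -0.13 and -0.18 and did not pass (limma, adjusted p = 0.15 and 0.0840).

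Among ubiquitin editors and other IkB proteins, 1 of 14 fell. BTRC, the F-box protein that recognises phosphorylated IkB, read 2.41, 2.62 and 2.55 FPKM in miR-424 and 3.77, 3.79 and 3.65 FPKM in EV libraries (change -0.43 ± 0.04, SE; limma, adjusted p = 0.00467). In the JAK-STAT arm 1 of 10 fell, STAT5A, at 1.596 ± 0.05 FPKM in miR-424 and 2.16 ± 0.08 FPKM in EV cells, while STAT3 had a change of -0.15 (adjusted p = 0.106, limma) and JAK1 of 0.12 (0.301). Among 12 further NF-kB targets, 1 fell, complement C3, at 34.9 ± 2.54 FPKM in miR-424 and 47.1 ± 1.42 FPKM in EV cells (SD, n = 3 each). Of 4 other ligands 0 passed. Without miR-424 replicate 3, 13 pathway genes were higher and 17 lower (16.5% and 21.5%, against 14.9% and 22.2% of all loci), and without EV replicate 1, 2 or 3 there were 2, 2 and 3 lower.

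Matches to the miR-424-5p seed were searched in annotated 3' UTRs (GENCODE 29, longest transcript) as TGCTGCT, the complement of bases 2 to 8, or GCTGCTA, its shift by 1 base with a terminal A. All 35 tested members had a 3' UTR, and 9 (25.7%) held a match, against 27.0% of the 10664 tested loci with a 3' UTR. Among the 9 was NFKBIZ, whose transcript was the longest of the locus merged with FAM55C. That transcript may belong to FAM55C, so the match may not be one of NFKBIZ. The median change was -0.14 in members with a match and -0.06 in those without, and over all loci it was -0.06 and -0.04. Of the 9, SOD2 and TNIP1 were among the members that fell and 0 among those that rose, where 9.8% of all loci with a match fell and 1.08% rose. The genes LIF, IL6, OSMR, BIRC3 and TNFAIP2 held no match in these transcripts. Matches are shown for the called members and for BTRC, a pathway gene that fell, with matched bases in capitals and each named by its first base in the 3' UTR.
TNIP1, base 307: aactccttcccTGCTGCTgagtggagagag
SOD2, base 5552: gctcctccttcTGCTGCTtgcctttgtgtg
BTRC, base 216: gactgcttcagTGCTGCTAtcagaagatgt
BTRC, base 2159: tttctgtcataTGCTGCTAttacaaagtgg
The match of SOD2 shown lies in a 3' UTR of 13436 bases, and use of that long form in these cells was not measured here. SOD2 held a second match, and CHUK, a further pathway gene that fell, held 1, and neither is shown. BTRC held 2 matches in which both searched words overlap and had the lowest adjusted p of the pathway genes after CXCR4, which held none.

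Promoters were available for 40 of the 49 members (RefSeq, GRCh38.p14, 250 bases before to 50 after the start). A match to the kB consensus GGGRNNYYCC (R is A or G, Y is C or T, N is any base), searched on both strands, was present in 16 of these 40, against 11.3% of 35116 promoters. The members were listed as NF-kB genes, so this larger share was built into the choice. The related genes CXCL1, CXCL2, CXCL3, CXCL5 and CXCL6 were among the 16. TRAF1, named above as an NF-kB target, held no match, so lack of a match need not mean lack of a kB site. Of 14 tested members with a match 1 rose and 1 fell, with a median change of -0.08, and of 16 without a match 1 rose and 3 fell, with a median of -0.05. Windows of 60 bases around the first match are shown to compare members that rose (IL6), fell (BIRC3), or did not pass (the CXCL genes, NFKBIA and TNFAIP3), with matched bases in capitals and each sequence read along the gene's strand.
IL6, chr7:22727102-22727161, plus: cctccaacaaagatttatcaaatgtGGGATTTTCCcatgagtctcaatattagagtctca
BIRC3, chr11:102317260-102317319, plus: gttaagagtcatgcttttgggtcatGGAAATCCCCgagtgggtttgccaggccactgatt
CXCL1, chr4:73869289-73869348, plus: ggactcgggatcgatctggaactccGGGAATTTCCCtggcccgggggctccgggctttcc
CXCL2, chr4:74099239-74099298, minus: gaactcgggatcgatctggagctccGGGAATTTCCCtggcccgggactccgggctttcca
CXCL3, chr4:74038734-74038793, minus: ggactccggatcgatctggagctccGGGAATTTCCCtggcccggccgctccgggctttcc
NFKBIA, chr14:35404796-35404855, minus: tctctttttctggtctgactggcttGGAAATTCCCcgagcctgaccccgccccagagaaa
TNFAIP3, chr6:137867167-137867226, plus: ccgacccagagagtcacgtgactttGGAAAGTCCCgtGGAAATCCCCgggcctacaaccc
In the CXCL genes the capitals cover a pair of overlapping matches, and TNFAIP3 has 2 separate ones. Whole promoters of CXCL1 and CXCL3 were 82.0% identical. BIRC3 carried a second match outside the window shown. These matches describe letters in a window, and binding was not measured.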

How the data were processed

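RNA-seq of 6 samples was analysed from 1 table of FPKM values that the authors deposited, with 1 column per sample matched by title. The submitters' processing notes name, with no role or order, Cuffdiff, Cufflinks 1.3.0, TopHat 1.4.1 and the human builds GRCh37 and hg19. Neither annotation nor read numbers, strand use or library scaling could be taken from the labels. Steps in low FPKM values gave only approximate depths, 0.774 to 1.05 of EV replicate 1, with 3.89% to 8.11% of low loci at the step, so no counts were recovered and no counting interval is given. FPKM is per length, and locus positions are those of the table.

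Values were taken as log2(FPKM + 1), which understates the change of low genes. The 11574 loci whose mean reached 1 FPKM entered 1 fit of limma 3.58.1 (R 4.3.3; trended prior variance, two-sided, no block, Benjamini-Hochberg adjustment over all tested loci, threshold 0.05). An exact permutation test of 3 against 3 cannot go below p = 0.1. The script was tested on simulated data. GC content was that of GENCODE 29 transcripts, found for 98.6% of tested loci, and its trend was removed by lowess of each library's deviations (span 0.3), an alternative chosen after seeing the data. The rule for values in every sample covered members past the threshold and the 2 most abundant of each role, and for pathway genes those past the threshold; other members, STAT3, JAK1, IKBKB and IKBKG, and the sequences shown were chosen after values were seen. Members and lists were chosen with earlier results of these data known. A marker and some sequences are not reported here.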

Additional observations from a re-analysis of the deposited data

How the results depend on the processing

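Over 15 or 16 alternatives each, the 7 called members kept their direction; 78 of 109 values also kept the call and 31 lost it, 20 of them where an EV library was left out. Loci called higher, 144 as reported, numbered 308 with median-of-ratios scaling, 319 with quantile normalization, 79 with the replicate block, 278 with the GC trend removed, and 31 to 1728 when 1 library was left out; loci called lower, 731 as reported, numbered 447 with quantile normalization, 468 at a mean of at least 5 FPKM, 270 with the replicate block, and 77 to 2574 when 1 library was left out. Members called higher, 3 as reported, were 6 with quantile normalization, 1 at a mean of at least 5 FPKM, 5 with the GC trend removed and 0 to 8 when 1 library was left out; members called lower, 4 as reported, were 0 to 10 when 1 library was left out. Pathway genes called higher, 0 as reported, were 1 with quantile normalization and 0 to 13 when 1 library was left out; those called lower, 6 as reported, were 3 at a mean of at least 5 FPKM and 2 to 17 when 1 library was left out. Without miR-424 replicate 3, median-of-ratios scaling gave 2181 loci higher and 2233 lower, 8 and 9 members, and 16 and 17 pathway genes, and removal of the GC trend gave 1362 and 2083 loci, 7 and 11 members, and 12 and 13 pathway genes. The cause of these shifts was not tested, beyond the fewer samples in a fit with a library left out.

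Replicate numbers were not shown to pair the samples: deviations of same-numbered libraries correlated across loci at 0.0509, 0.152 and 0.127. With the replicate block, 2 members were higher and 3 lower, IL6 and TNIP1 losing the call (limma, adjusted p = 0.116 and 0.0871). Each miR-424 library, and EV replicates 2 and 3, correlated best with the library of its own number. Only EV replicate 1 did not, being nearest to miR-424 replicate 2 at 0.0613, against 0.0509 for miR-424 replicate 1.

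Signs turned only in members near 0 that were not called. With median-of-ratios scaling the change was 0.02 for IL6ST and IL6R and 0.01 for RELA; with quantile normalization it was 0.02 for IL6ST, 0.06 for IL6R, 0.00 for CXCL3 and 0.01 for RELA. Without miR-424 replicate 3 and with median-of-ratios scaling it was 0.06 for IL6ST, 0.03 for IL6R, 0.02 for CXCL2, 0.07 for BIRC2 and 0.01 for RELA. With the GC trend removed it was -0.01 for REL, and without miR-424 replicate 3 as well 0.05 for IL6R, -0.02 for CXCL1 and REL and 0.06 for RELA. Leaving out 1 library gave 0.00 for IL11 without EV replicate 1, -0.07 to 0.05 for IL6ST, 0.02 for IL6R without miR-424 replicate 3 or EV replicate 1, -0.25 to 0.01 for CXCL2, -0.11 to 0.05 for BIRC2, -0.02 for CXCL1 without EV replicate 2, and -0.06 and -0.04 for REL without miR-424 replicate 2 and EV replicate 3. Since fragment counts are unknown, differences in members under 1 FPKM cannot be weighed against counting error.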
